A study of Drosophila melanogaster with 12 samples.

Results

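Gene expression was compared between iso31 flies, a laboratory strain of Drosophila melanogaster, kept for 3 weeks under chronic circadian misalignment (CCM) and flies kept for the same time on a control schedule. The CCM schedule was LD 14:14, a 28 h cycle of 14 h light and 14 h dark, and the control schedule was LD 12:12, a 24 h cycle. The comparison holds 6 of the 12 samples of the study, the 3 CCM and the 3 control samples of week 3 (replicates A, B and C in each group), and all 14413 counted features, each a gene or a set of merged genes. Every sample was a pool of 10 male and 10 female whole flies, with no transgene or mutant allele named in the labels, fed sucrose and agar food and collected in the first hours after lights on. Nothing in the labels says more of how the pools of a group were separated, so p-values measure the spread between these pools. Because RNA came from whole flies, fewer cells of a type and less RNA per cell cannot be told apart in any of the results.

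The clock of the fly is a feedback loop in which the transcription factors CLK and CYC activate period (per) and timeless (tim), whose proteins enter the nucleus and block that activation. Light resets the loop each day through the photoreceptor protein CRY, which leads to the loss of TIM protein. A light cycle far from the natural period of the clock keeps internal time and light out of step, and the clock in turn sets the daily timing of feeding, sleep, detoxification and metabolism in many tissues.

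Between 21506910 and 21925648 reads were counted in the CCM samples and between 17842804 and 19162218 in the control samples, so the depths did not overlap. Merged genes held 2.62% to 2.95% of the counts. Of the features, 12208 had enough counts to be tested with edgeR's quasi-likelihood test, and a gene with a Benjamini-Hochberg adjusted p under 0.1 is described as called. Levels are given as CPM, the count of a feature scaled to the TMM-adjusted total of its library, in the order of replicates A, B and C, and log2FC is CCM over control. CPM are not divided by gene length and are compared here only between samples. Exonic length was known for 11396 of the tested features, and genes at or above the median of 1872.5 bases are called long (5698 genes) and those below it short (5698 genes), which leaves 812 tested features without a length.

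Replicate C of the CCM group stood apart in antimicrobial peptide genes, the secreted effectors of the humoral immune response. In that library 13 features were more than 4 times as high as in each of the other 5 libraries, among them AttA, AttB, AttC, CecA2, CecC, DptA, DptB, Dro and Mtk, and no other library had such a feature. Mtk (Metchnikowin) had 13.4, 9.62 and 879 CPM in the CCM samples and 5.72, 9.17 and 55.2 CPM in the control samples. CecA2, a cecropin, had 0.788, 0.709 and 49.3 CPM in the CCM samples and 0.734, 1.10 and 2.40 CPM in the control samples. The median log2FC of the 12 antimicrobial peptides tested was 3.12, but the median log2 ratio within same-letter pairs was -0.31 for A and -0.65 for B against 3.92 for C. The increase was therefore that of 1 library, and 0 of the 12 were called as upregulated. Def (Defensin) was called as lower with a block for replicate letter (-0.31) and with offsets for gene length added (-0.52), although its CPM overlapped between the groups.

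Without a replicate block, 2 of the 12208 features (0.0164%) were called at week 3, both downregulated and both short, while 1462 features had an unadjusted p under 0.05 and DESeq2 called 353 (3.51% of those it tested), 106 higher (1.05%) and 247 lower (2.46%). With any 1 library left out, edgeR called between 0 and 5. Same-letter CCM and control samples deviated together, and with the letter as a block edgeR called 1140 features (9.34%), 376 upregulated (3.08%) and 764 downregulated (6.26%). The block selects features whose same-letter ratios agree, so the signs within pairs are no separate evidence. All 376 upregulated features were higher in CCM in each of the 3 same-letter pairs, and 763 of the 764 downregulated features were lower in each. Of all 12208 tested features, 2566 were higher and 2952 lower in all 3 pairs. The median log2 ratio of the downregulated features was -0.61 in pair A, -0.38 in pair B and -0.39 in pair C. The count rests on which letters are present, since with 2 letters it was 0 without A, 20 without B and 1939 without C. In what follows, "upregulated" and "downregulated" refer to calls with the block, and edgeR called none of the genes so described without it except CG18609 and CG3739. DESeq2 without a block called 105 of the 376 as higher and 247 of the 764 as lower.

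The direction of change was split by gene length. Among long genes, 676 were downregulated (11.9%) and 64 upregulated (1.12%), whereas among short genes 50 were downregulated (0.878%) and 273 upregulated (4.79%). Median exonic length was 5361.5 bases in 10 exons for the genes that were downregulated and 1105 bases in 3 exons for those upregulated. CPM of the groups did not overlap for 1394 of all tested features (11.4%) with the 3 CCM samples lower and for 829 (6.79%) with the 3 higher. By length, all 3 CCM samples were lower for 1131 long genes (19.8%) and 181 short genes (3.18%), and all 3 were higher for 223 long genes (3.91%) and 515 short genes (9.04%). Over the tested genes cut by exonic length into 5 classes of equal size, the median log2FC went from 0.12 in the shortest class to -0.23 in the longest. In the longest class, of 3716 bases and more, 514 genes were downregulated (22.6%) and 9 upregulated (0.395%), and in the shortest class, of up to 1004 bases, 15 were downregulated (0.658%) and 151 upregulated (6.62%). The counts for the gene lists below are to be read beside these shares.

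**Figure D1:**
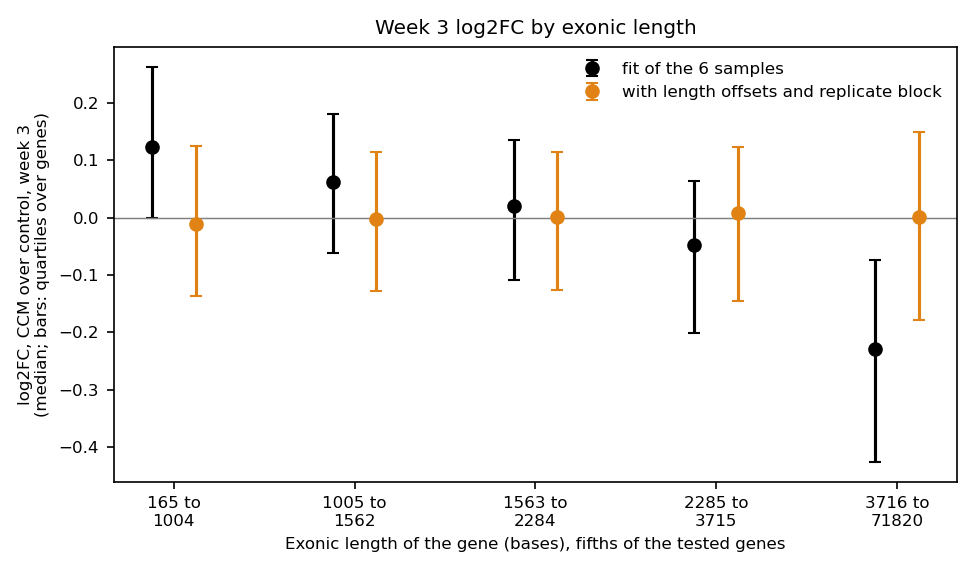
Median week 3 log2FC (y axis; bars are the quartiles over genes) in 5 equal classes of the tested genes ordered by exonic length in bases (x axis), for the fit of the 6 samples (black) and the fit with length offsets and replicate block (orange). The black medians go down from 0.12 to -0.23 with length, while the orange medians lie between -0.01 and 0.01.

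Across the 11396 genes, log2FC and log2 exonic length had a Pearson correlation of -0.47, which describes genes and not replicates. The same-letter pairs gave -0.49 for A, -0.34 for B and -0.25 for C. The deviation of each library from the mean of the 6 correlated with length at -0.35, -0.27 and -0.12 in the CCM samples and at 0.39, 0.14 and 0.18 in the control samples. The libraries of each group thus lay on opposite sides of 0, and an exact two-sided permutation test over the 6 samples gave p = 0.1, the smallest that 3 against 3 allows. The CCM libraries were also the deeper ones, and the part that depth or RNA quality has in this trend was not tested. When each library's own trend with exonic length was removed by offsets, with the block kept, the correlation was -0.044 and edgeR called 550 features (4.51%), 275 in each direction (2.25% each). Of these, 29 in each direction had no exonic length, so the offsets did not adjust them. Of the long genes, 158 were then called lower (2.77%) and 159 higher (2.79%), and of the short genes 88 lower (1.54%) and 87 higher (1.53%). This length-adjusted count was 172 without letter A, 44 without B and 644 without C.

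**Figure D2:**
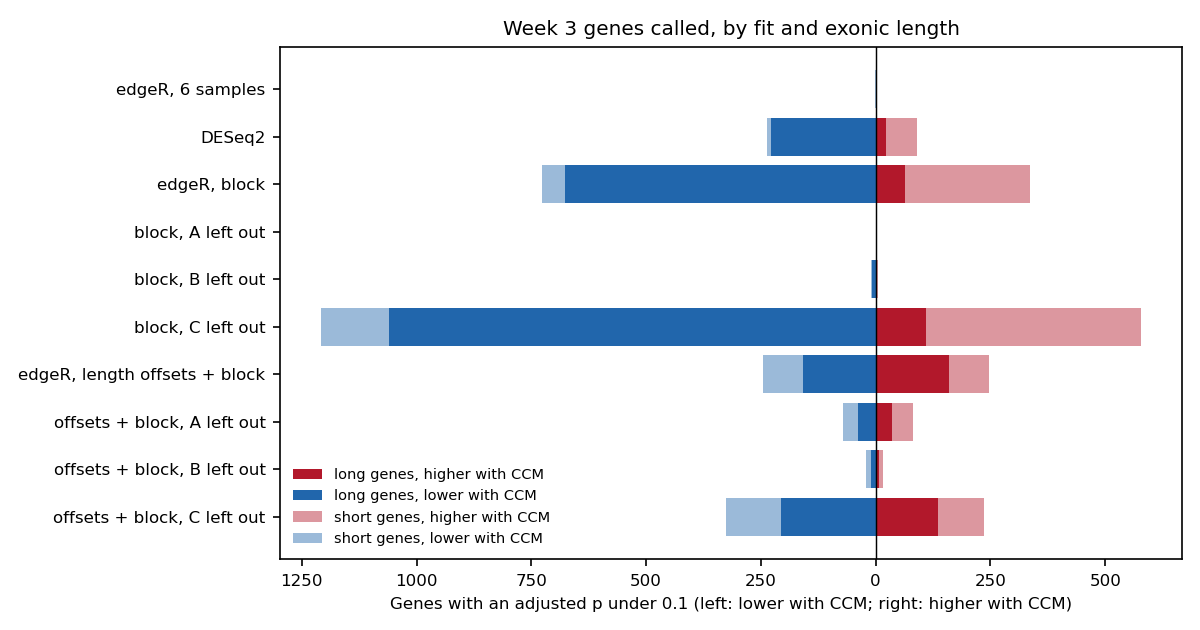
Number of week 3 genes with an adjusted p under 0.1 (x axis; lower with CCM to the left in blue, higher to the right in red; dark for long and pale for short genes) in each fit (y axis). Calls with the block are mostly long genes lower with CCM, calls with length offsets divide evenly (158 long genes lower and 159 higher), and leaving out letter A leaves 0 calls with the block and 172 with offsets.

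The offsets raise the log2FC of the longest genes and lower that of the shortest, so which sets kept their calls follows largely from the direction of the adjustment. All 50 short downregulated genes, 55 of the 64 long upregulated genes, 158 of the 676 long downregulated genes and 87 of the 273 short upregulated genes were called in the same direction in it. The genes that are described below for each set are therefore given with both fits. Of the long downregulated genes, 22.5% lay on the X chromosome, which holds 18.3% of the long genes tested, and of the short downregulated genes 2 of 50 did, where the X holds 13.6% of the short genes tested.

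In each set of long or short genes, the 6 with the smallest p in each direction were taken only from genes whose groups did not overlap. Non-overlap of these genes was thus fixed by the choice. Of the 6 long genes lower with CCM that had the smallest p, Jhe had the largest fold. It encodes juvenile hormone esterase, which breaks down juvenile hormone, and lies on 2R from 16119793 to 16122773 (dm6). It had 7.04, 7.45 and 8.38 CPM in the CCM samples and 21.5, 15.1 and 18.8 CPM in the control samples. Its log2FC was -1.28 (SE 0.16, n = 3 per group), with an adjusted p of 0.17 without the block, 0.021 with it and 0.019 in the length-adjusted fit, where its log2FC was -1.27. The other genes of juvenile hormone and ecdysone signalling moved less, with 4 of 18 downregulated with the block (Jhe, Kr-h1, ftz-f1 and gce) and Jhe alone in the length-adjusted fit. The median exonic length of the list was 5306 bases, and its block count is near the 22.6% downregulated in the longest class. For Kr-h1, merged features that include it held 86.3% of the reads, so its value is uncertain.

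Genes that bind RNA and control translation were lower as a group. Of 26 tested, 21 were downregulated and 0 upregulated, with a median log2FC of -0.53. Their median exonic length was 8034.5 bases, and the longest class of genes had a median log2FC of -0.23 with 22.6% downregulated. Their summed level was 2224 to 2414 CPM in the CCM samples and 2990 to 3622 CPM in the control samples. Rasputin (rin), the fly homolog of the stress granule protein G3BP, had 62.1, 64.1 and 68.5 CPM in the CCM samples and 115, 96.8 and 112 CPM in the control samples. Its log2FC was -0.73 (SE 0.09; adjusted p 0.021 with the block) and -0.50 in the length-adjusted fit (adjusted p 0.029). Syncrip (Syp), an RNA-binding protein of neurons and synapses, had 33.2, 27.1 and 33.6 CPM against 65.9, 54.4 and 46.1 CPM in controls. All CCM values of both genes lay below all control values. In the length-adjusted fit 10 members were called as lower (rin, Hrb98DE, Fmr1, Syp, pAbp, eIF4G1, sqd, me31B, tral and AGO1), muscleblind (mbl) was called as higher, and the median was -0.29.

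Genes of cAMP signalling and memory held 9 downregulated and 0 upregulated of 14, where 22.6% of the longest class were downregulated. Their median log2FC was -0.35 and -0.18 with length offsets. In all 3 same-letter pairs 12 of the 14 were lower, as were 2952 of all 12208 tested features. The catalytic subunit gene Pka-C1 had 17.4, 17.2 and 21.9 CPM in the CCM samples and 37.9, 29.9 and 31.8 CPM in the control samples. Its log2FC was -0.82 (SE 0.15; adjusted p 0.030 with the block) and -0.59 when adjusted for length (adjusted p 0.038). The phosphodiesterase gene dunce (dnc), with 16683 exonic bases, went from a log2FC of -0.68 to -0.22 (adjusted p 0.18) with length offsets. In the length-adjusted fit Pka-C1, Fmr1 and Pka-R2 were called as lower. Fmr1, the homolog of the fragile X protein gene, belongs both to this list and to the RNA-binding list.

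Neuronal and synaptic markers are all long genes, and their values depended on length and on the pair. Of 20 neuron markers 6 were downregulated and 0 upregulated (median log2FC -0.54), and of 27 synaptic genes 10 and 0 (median -0.32), with brp, Syt1 and others in both lists. For comparison, 22.6% of the longest class of genes were downregulated, with a median of -0.23. Bruchpilot (brp), a scaffold of the presynaptic active zone, had 2.18, 1.91 and 2.86 CPM in the CCM samples and 6.45, 5.23 and 4.69 CPM in the control samples, with a log2FC of -1.24 (SE 0.19; adjusted p 0.040 with the block). The calcium sensor of vesicle release Syt1 had 11.7, 12.1 and 11.6 CPM against 27.0, 20.5 and 16.7 CPM in controls. Neither gene overlapped between groups, and both were also called with length offsets, at -0.83 and -0.55. The median log2 ratio of the neuron markers was -0.90 in pair A, -0.48 in pair B and -0.07 in pair C, and with length offsets the list median was -0.14, with Vmat called as higher. The active zone gene unc-13, of 22598 exonic bases, had a log2FC of -0.62 that became -0.09 with length offsets (adjusted p 0.58). Glial markers had a median of 0.01, with 0 of 8 called in either direction.

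Chromatin remodellers and coactivators showed the same dependence on length. Of 32 chromatin genes, 11 were downregulated and 0 upregulated (median log2FC -0.29), and their summed level was 760 to 808 CPM in the CCM samples against 926 to 983 CPM in the control samples. Their median exonic length was 6229 bases, and their median log2FC is near the -0.23 of the longest class, where 22.6% were downregulated. Kismet (kis), a CHD-type remodeller of 19229 exonic bases, had 16.3, 18.2 and 17.9 CPM in the CCM samples and 29.1, 28.4 and 27.8 CPM in the control samples. Its log2FC was -0.70 (SE 0.05; adjusted p 0.027 with the block) and -0.22 with length offsets (adjusted p 0.23), and in that fit trithorax (trx) was the only chromatin gene called. Mediator subunits and coactivators differed by length within the list, since the 15 long members had a median of -0.20 with 4 downregulated and the 16 short members a median of 0.07 with 0 called. MED26 and Ncoa6 were called with length offsets too, at -0.55 and -0.51.

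The longest genes of the list sets encode giant cytoskeletal and matrix proteins, and 12 of 18 were downregulated and 0 upregulated (median log2FC -0.52). The longest class of all tested genes had 22.6% downregulated and a median of -0.23. Dumpy (dpy), a matrix protein gene with the longest exonic length tested (71820 bases), had 3.11, 2.79 and 2.61 CPM in the CCM samples and 7.50, 5.63 and 5.66 CPM in the control samples. Its log2FC of -1.14 (SE 0.14; adjusted p 0.032 with the block) was -0.40 with length offsets (adjusted p 0.32). The spectraplakin gene shot went from -0.76 to -0.18. The muscle giant sallimus (sls) changed sign, from -0.34 to 0.39, and was called as higher with length offsets (adjusted p 0.066). The genes zip and trol had no exonic length here, so the offsets did not adjust them, and they were called as lower in both fits. Over the 16 members with a length, the median went from -0.46 to 0.00093 with length offsets and 0 were then called as lower.

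Genes of growth control fell where they were called, with the exception of Thor. Of 18 insulin and TOR pathway genes, 7 were downregulated, among them Myc, chrb, srl and scyl, and 1 was upregulated. Of all long genes 11.9% were downregulated, and of the longest class 22.6%. Myc, the growth-promoting transcription factor, had 16.6, 14.4 and 24.2 CPM in the CCM samples and 41.7, 33.1 and 36.2 CPM in the control samples (log2FC -1.01, SE 0.24), and merged features that include it held 13.3% of the reads. Spargel (srl), the PGC-1 homolog that promotes mitochondrial gene expression, had 8.44, 7.85 and 8.03 CPM against 14.5, 13.3 and 17.2 CPM in controls. The CCM values of both genes lay below all control values. Myc, srl, chrb and scyl, the last 2 being inhibitors of TOR of the REDD family, were also called with length offsets, at log2FC between -0.79 and -0.51. Thor, the short gene of the translation repressor 4E-BP, rose from 514, 442 and 468 CPM in controls to 587, 578 and 644 CPM (log2FC 0.35, SE 0.08), and was not called with length offsets (0.22, adjusted p 0.18). Of 24 genes of Notch, EGFR, Wnt and Hippo signalling 6 were downregulated with the block and 0 called with length offsets, and of 13 Hox and selector genes 2 (ct and hth) and 0. Both block counts are near the shares of the longest class (22.6%) and of all long genes (11.9%).

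**Figure D3:**
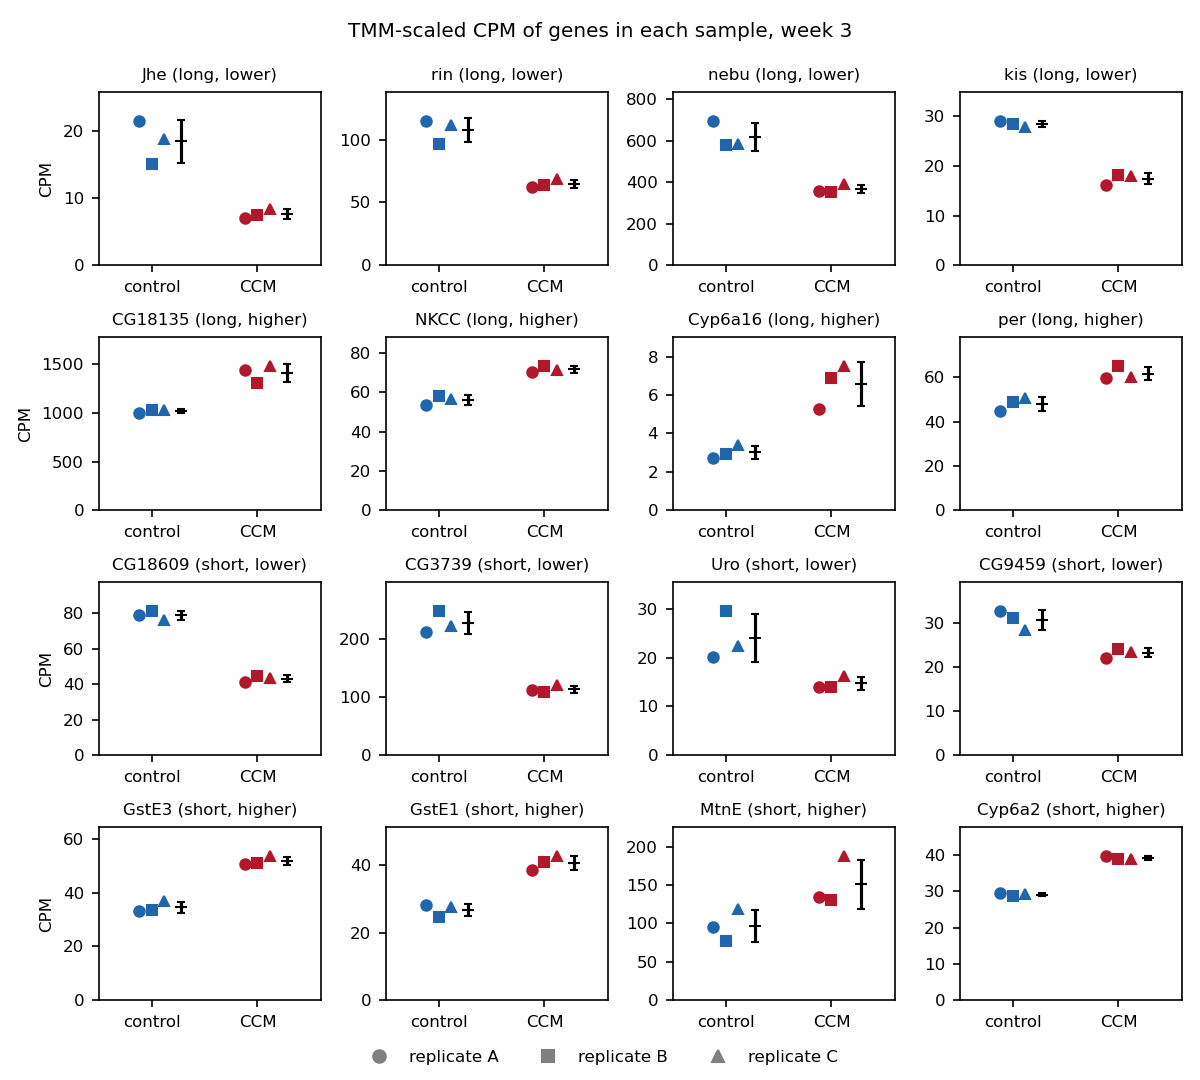
TMM-scaled CPM (y axis, from 0) of 16 genes in the control (blue) and CCM (red) samples of week 3, with a marker shape for each replicate letter and the mean with SD beside each group of 3. In each panel the 3 CCM values lie on 1 side of the 3 control values, as for GstE3 at 50.7 to 53.6 against 33.3 to 36.8.

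Long genes that rose were fewer. CG18135 had 1446, 1307 and 1483 CPM in the CCM samples and 997, 1026 and 1031 CPM in the control samples, with a log2FC of 0.47 (SE 0.06; adjusted p 0.030 with the block) and 0.61 with length offsets. NKCC, a cotransporter of sodium, potassium and chloride, had 70.3, 73.4 and 71.3 CPM against 53.5, 58.4 and 56.4 CPM in controls (log2FC 0.35, SE 0.04; adjusted p 0.038). The P450 gene Cyp6a16 on 2L had 5.28, 6.92 and 7.51 CPM against 2.73, 2.94 and 3.37 CPM (log2FC 1.12, SE 0.16; adjusted p 0.032). These 3 genes were chosen among those without overlap between the groups, and all 3 were called as higher with length offsets. Drat, which carries an alcohol dehydrogenase domain, CG8745 and CG11426 completed the 6 of this set with the smallest p, at log2FC of 0.45, 0.63 and 0.37. Chaperones of the Hsp70 and Hsp90 systems had 4 upregulated and 2 downregulated of 20, and 19 of the 20 are long. Of all long genes 1.12% were upregulated and 11.9% downregulated. The 4 were Hsp70Aa, Hsp68, Hsc70-5 and Hsp70Bbb, at log2FC of 0.32 to 2.57 with the block. With length offsets all 4 were called as higher, together with stv, and 0 as lower. The mitochondrial chaperone gene Hsc70-5 rose from 837, 842 and 797 CPM to 1130, 1062 and 911 CPM (log2FC 0.33, SE 0.10), while the stress-induced Hsp68, also upregulated, overlapped between the groups, at 28.4, 53.4 and 16.7 CPM against 13.6, 19.3 and 14.2 CPM.

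Short genes that fell included both genes called without the block. CG18609, a predicted fatty acid elongase on 2R from 18742517 to 18743626 (dm6), had 41.0, 44.6 and 43.7 CPM in the CCM samples and 79.3, 81.2 and 76.3 CPM in the control samples. Its log2FC was -0.87 (SE 0.04), with an adjusted p of 0.041 without the block, 0.012 with it and 0.0033 in the length-adjusted fit, where its log2FC was -0.97. CG3739, annotated as a serine carboxypeptidase on 3R from 19393360 to 19395188 (dm6), had 112, 109 and 121 CPM against 213, 249 and 223 CPM in controls. Its log2FC was -1.004 (SE 0.08), with adjusted p of 0.056, 0.012 and 0.0051 in the same 3 fits. In both genes every CCM value lay below every control value, as the choice of this set required. Without the block the adjusted p of each passed 0.1 when any 1 library other than CCM replicate C was left out, up to 0.55 without CCM replicate A.

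Elongases of very long fatty acids, whose products enter waxes, pheromones and membranes, held 4 downregulated and 0 upregulated of 18 (median log2FC -0.16, and -0.19 with length offsets). The 4 called with the block were CG18609, CG9459, CG31522 and CG31523, and the 4 called with length offsets were CG18609, CG9459, CG9458 and CG6660. CG9459 had 22.2, 24.1 and 23.5 CPM in the CCM samples and 32.8, 31.1 and 28.4 CPM in the control samples. Urate oxidase (Uro), an enzyme of purine breakdown restricted to Malpighian tubules, had 14.0, 14.1 and 16.4 CPM against 20.2, 29.7 and 22.4 CPM in controls (log2FC -0.70, SE 0.18; adjusted p 0.041 with the block). CG34180 and CG14464 were the other short genes with the smallest p, at log2FC of -1.01 and -0.38. CG9459, Uro, CG34180 and CG14464 were likewise chosen among genes without overlap, and all 4 were called as lower with length offsets. The other 7 Malpighian tubule markers were not called in either direction.

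Short genes that rose included enzymes of detoxification. Of 34 glutathione S-transferases, which couple glutathione to foreign and oxidised compounds, 8 were upregulated and 0 downregulated, 32 had a log2FC above 0, and the median was 0.21, and 0.0998 with length offsets. Their median exonic length was 884 bases, and the shortest class of genes had a median of 0.12 with 6.62% upregulated. Their summed level was 3237 to 3587 CPM in the CCM samples and 2842 to 3061 CPM in the control samples. GstE3, on 2R from 18400713 to 18401467 (dm6), had 50.7, 51.1 and 53.6 CPM in the CCM samples and 33.3, 33.5 and 36.8 CPM in the control samples, with a log2FC of 0.58 (SE 0.05; adjusted p 0.021 with the block). GstE1 had 38.5, 40.8 and 42.7 CPM against 28.1, 24.7 and 27.5 CPM. Both lay above all control values, and they were the 2 members called with length offsets, at 0.46 and 0.49. The list of cytochrome P450 genes was drawn by the prefix Cyp and holds 77 genes, of which Cyp1 and Cyp40 are cyclophilins and were not called. Of the P450 genes 7 were upregulated and 2 downregulated, and 6 and 1 with length offsets. Cyp6a2 rose from 29.5, 28.7 and 29.2 CPM to 39.8, 38.9 and 38.9 CPM (log2FC 0.43, SE 0.02), and Cyp4d21 fell from 27.9, 31.8 and 16.6 CPM to 19.4, 21.8 and 12.6 CPM, with groups that overlapped. Of 29 UDP-glycosyltransferases 3 were upregulated and 0 downregulated.

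Metallothioneins and oxidant defence genes rose where they were called. All 6 metallothioneins, small proteins that bind copper, zinc and cadmium, had a log2FC above 0, and MtnE, MtnD and MtnA were upregulated. Their median exonic length was 532.5 bases. In the shortest class 1711 of 2280 genes had a log2FC above 0, and 6.62% were upregulated. The list median was 0.32, and 0.15 with length offsets. MtnE had 134, 131 and 188 CPM in the CCM samples and 96.0, 77.1 and 119 CPM in the control samples (log2FC 0.64, SE 0.25; adjusted p 0.026 with the block). MtnD had 14.2, 13.4 and 16.4 CPM against 8.76, 6.68 and 8.86 CPM (log2FC 0.86, SE 0.15), and both were called with length offsets. MtnB, MtnC and MtnF had log2FC of 0.26, 0.36 and 0.27 and were not called. Among 17 antioxidant genes, MsrA, which repairs oxidised methionine, and catalase (Cat) were upregulated in both fits, and 0 were downregulated. Of all tested features 3.08% were upregulated with the block and 2.25% with length offsets. MsrA had 193, 127 and 143 CPM against 92.7, 96.0 and 102 CPM in controls, and Cat had 1540, 1520 and 1531 CPM against 1343, 1184 and 1231 CPM. Neither overlapped between the groups.

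Ribosomal and proteasomal genes that were called with the block were all higher with CCM, and none was called as higher with length offsets. Of 81 cytosolic ribosomal protein genes 19 were upregulated and 0 downregulated, 64 were higher in all 3 same-letter pairs, and the median log2FC was 0.18. In the shortest class of genes 6.62% were upregulated, with a median of 0.12, and 2566 of all 12208 tested features were higher in all 3 pairs. RpL13A had 3485, 3222 and 4184 CPM in the CCM samples and 2869, 2520 and 3551 CPM in the control samples, so the groups overlapped while each CCM sample was above its same-letter control (log2FC 0.28; adjusted p 0.043 with the block). The summed level overlapped between the groups, at 181357 to 217125 CPM against 153525 to 194392 CPM in controls. With length offsets the median was 0.07, and RpS5b, a paralog expressed in the germline, was called as lower (-0.33). Of 48 proteasome subunit genes 9 were upregulated and 0 downregulated, 27 did not overlap between groups with CCM higher, and the summed level was 5997 to 6435 CPM against 5228 to 5650 CPM. Among all short genes 4.79% were upregulated and 9.04% did not overlap with CCM higher. Their median was 0.21 and was 0.16 with length offsets. In other lists of mostly short genes, 0 of 71 mitochondrial ribosomal protein genes and 0 of 84 oxidative phosphorylation genes were called in either direction, with medians of 0.03 and 0.09. The difference between these lists was not tested.

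Digestive enzymes of the midgut and sugar transporters changed in part. Of 41 digestive genes, 32 of them short, 11 were upregulated and 0 downregulated (median log2FC 0.25). Of all short genes 4.79% were upregulated, and of the shortest class 6.62%, with a median of 0.12. The 11 included 7 serine protease genes of the Jonah family, whose other members were not called, and the maltases Mal-A6, Mal-A8 and Mal-B2. Mal-A6 had 423, 519 and 609 CPM in the CCM samples and 334, 386 and 323 CPM in the control samples (log2FC 0.57, SE 0.17; adjusted p 0.042 with the block), and it was called with length offsets together with Mal-A8, Mal-B2, Jon99Ciii and Jon25Bi. The summed level of the digestive genes overlapped between the groups. Sugar transporters moved in both directions, with 4 upregulated and 2 downregulated of 20. Of all tested features 3.08% were upregulated and 6.26% downregulated. Nebulosa (nebu) had 360, 352 and 389 CPM in the CCM samples and 695, 578 and 583 CPM in the control samples (log2FC -0.75, SE 0.10; adjusted p 0.021 with the block), and CG4607 had 117, 134 and 153 CPM against 196, 197 and 205 CPM. The transporter genes pippin and CG15408 rose from 43.9, 42.4 and 50.1 CPM to 57.4, 57.2 and 64.9 CPM and from 7.66, 8.42 and 10.8 CPM to 12.7, 13.6 and 17.3 CPM. None of these 4 overlapped, and all 4 kept their calls with length offsets.

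**Figure D4:**
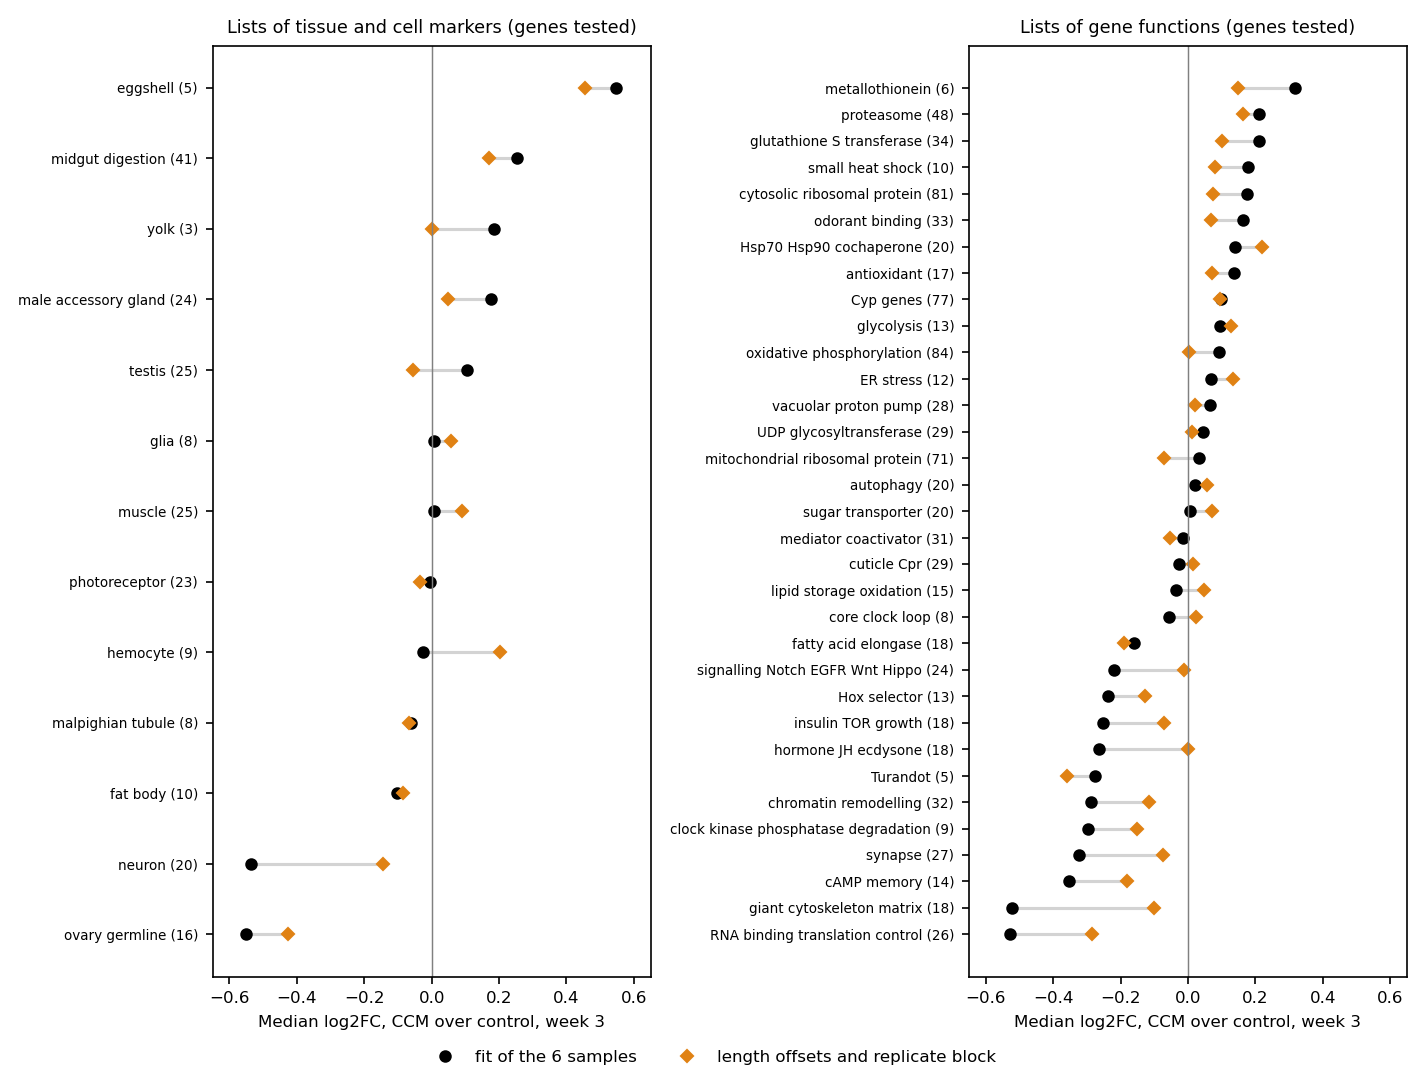
Median week 3 log2FC (x axis) of each list of tissue and cell markers (left) and of gene functions (right), with the number of genes tested in parentheses, in the fit of the 6 samples (black circles) and with length offsets and replicate block (orange diamonds). The antimicrobial peptide list, at 3.12 in the fit of the 6 samples, is not drawn. The germline and RNA-binding lists keep medians of -0.43 and -0.29 with offsets, while the giant protein list moves from -0.52 to -0.10, a value that includes 2 members without a length (0.00093 over the other 16).

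Among the tissue markers, the list of ovary and germline genes had a lower median, and most members of the other lists were not called. The pools held both sexes, and the tissue in which these genes fell was not tested. Of 16 germline genes tested, 8 were downregulated and 0 upregulated. Of the 16, 13 are long, with a median of 3044 bases over the list. Among all long genes 11.9% were downregulated, and among all tested features 6.26%. The summed level was 446 to 537 CPM in the CCM samples against 563 to 734 CPM in the control samples. Oskar (osk), the organiser of germ plasm in the oocyte, had 26.6, 28.8 and 34.5 CPM in the CCM samples and 48.2, 45.7 and 52.0 CPM in the control samples. Its log2FC was -0.70 (SE 0.12; adjusted p 0.021 with the block) and -0.65 with length offsets (adjusted p 0.019), where tud and me31B were called as well. The germline list median was -0.55 and stayed at -0.43 with length offsets, and me31B and bru1 are also in the RNA-binding list. Gurken (grk), the oocyte signal to the follicle cells, had 48.5, 50.3 and 43.4 CPM against 51.8, 53.2 and 36.5 CPM. Yolk genes, made in fat body and follicle cells, overlapped between groups, as for Yp1 with 1131, 1277 and 2685 CPM against 1811, 1288 and 2193 CPM, and only 5 of 20 eggshell genes had enough counts to be tested, with 0 called.

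In male tissues, accessory gland genes had 5 upregulated and 1 downregulated of 24, and testis genes 0 and 1 of 25 (bol). The summed accessory gland level was 2339 to 2639 CPM in the CCM samples and 2129 to 2335 CPM in the control samples. Sex Peptide (SP), a seminal fluid protein gene, had 33.2, 26.2 and 32.3 CPM against 12.2, 9.32 and 29.1 CPM, which overlapped, and Acp36DE, the single long gene of the list, was the 1 downregulated and the 1 called with length offsets. The muscle median was 0.01, with TpnC41C upregulated and bt downregulated, and with length offsets 6 of 25 were called as higher (Zasp52, Obsc, sls, Strn-Mlck, Tm1 and TpnC41C). Photoreceptor markers had 3 of 23 downregulated (norpA, Rh6 and rdgA), a share near the 11.9% of all long genes, and of these Rh6, the opsin of a class of inner photoreceptor, was called with length offsets. The lipid carrier genes of the fat body, apolpp and Apoltp, fell with the block, at log2FC of -0.60 and -0.52, and were not called with length offsets (adjusted p 0.198 and 0.53). Of 9 hemocyte markers, all of them long, 1 was downregulated, again near the 11.9% of all long genes. It was Hml, with a log2FC of -0.60 that was -0.23 with length offsets, where Pxn was called as higher (0.28).

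Clock genes moved in both directions, and since RNA was taken at a single time after lights on, a change in level and a change in phase cannot be told apart. Of the 8 genes of the core loop, all but cyc are long. The per gene had 59.7, 65.1 and 60.4 CPM in the CCM samples and 44.6, 48.8 and 50.9 CPM in the control samples, and it was upregulated (log2FC 0.36, SE 0.07; adjusted p 0.040 with the block and 0.031 with length offsets). Its partner tim had 72.8, 63.6 and 64.2 CPM against 122, 84.0 and 104 CPM in controls and was downregulated (log2FC -0.62, SE 0.17; adjusted p 0.030), also with length offsets (-0.33, adjusted p 0.073). The activator Pdp1 had 71.0, 66.0 and 82.2 CPM against 174, 111 and 107 CPM, and Clk had 1.53, 1.77 and 1.74 CPM against 3.41, 2.49 and 3.60 CPM. Both were downregulated, at -0.84 and -0.91, but neither was called with length offsets (adjusted p 0.101 and 0.16). Without length offsets vri, cry, cwo and cyc were not called, at log2FC of 0.19, 0.18, -0.04 and -0.07, and vri was called as higher with them (0.37). Of 9 kinases, phosphatases and other regulators of clock proteins 5 were downregulated and 0 upregulated (nmo, wdb, CkIIbeta, dco and CkIIalpha), and with length offsets nmo alone (-0.52). Their median exonic length was 5059 bases. Of the longest class 22.6% were downregulated, and of all long genes 11.9% were downregulated and 1.12% upregulated.

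The week 2 samples, which share no sample with those of week 3, give the same genes 1 week earlier. Of the features downregulated at week 3, 402 of 764 were lower in CCM at week 2, and of those upregulated 315 of 376 were higher, where 7089 of all 12208 tested features had the same sign at both weeks. For short downregulated genes it was 43 of 50 and for long downregulated genes 345 of 676. The correlation of log2FC with exonic length was -0.07 at week 2, against -0.47 at week 3. CG18609 had 35.7, 26.1 and 25.7 CPM in CCM samples and 58.4, 59.3 and 52.6 CPM in control samples at week 2, a log2FC of -0.95, and Jhe had 9.59, 7.13 and 11.3 CPM against 17.4, 21.5 and 13.9 CPM (-0.91). At neither week did the groups overlap for these genes. The lists differed in this. The proteasome list, with a median of 0.21 at week 3, had -0.08 at week 2, and the RNA-binding list, at -0.53, had -0.003. The neuron list, at -0.54, had 0.18. The germline list, at -0.55, had -0.37, the metallothioneins, at 0.32, had 0.25, and the accessory gland list, at 0.18, had 0.50. In a test of the difference between the weeks, edgeR called 0 of 12530 features (smallest adjusted p 0.91, 570 with an unadjusted p under 0.05) and DESeq2 called 1, dpy (adjusted p 0.0019), whose log2FC was 0.57 at week 2.

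**Figure D5:**
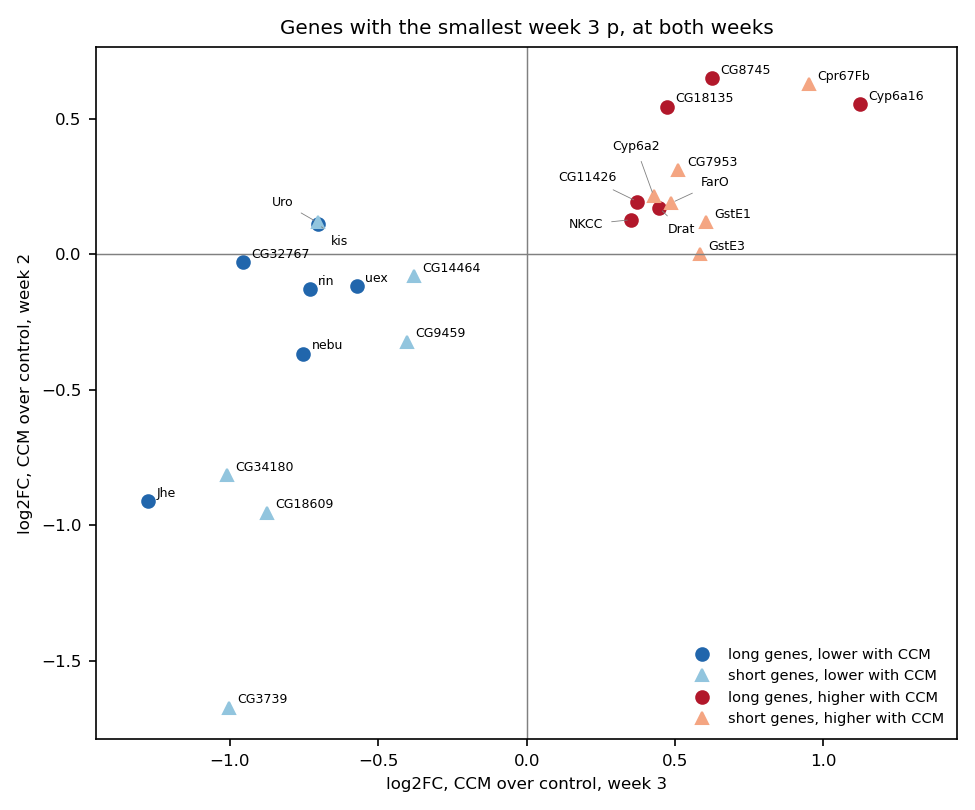
log2FC of CCM over control at week 3 (x axis) and at week 2 (y axis) for the 24 genes with the smallest week 3 p among those whose groups do not overlap, 6 in each set of long (circles) and short (triangles) genes lower (blue) or higher (red) with CCM. All 12 genes chosen as higher and 10 of the 12 chosen as lower have the same sign at week 2, with kis and Uro as the exceptions.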

How the data were processed

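Per the labels, RNA of whole-fly pools was sequenced, and the authors aligned the reads with STAR to dm6, kept coding genes and counted with MMquant, which merges genes that share reads. The files deposited by the authors hold raw read counts, 1 value for each feature, without normalization. Of the 13240 features that stand for 1 gene, 13025 had their identifier in the Ensembl BDGP6 annotation, which gave positions and exonic length (the union of its exons), and 52 of the other 215 were named from tables of the study. Where the counting holds overlapping or similar genes apart is not given in the sources used here.

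Tests were run with edgeR 4.0.16 under R 4.3.3 (filterByExpr, TMM, glmQLFit and glmQLFTest, Benjamini-Hochberg adjustment over all tested features, threshold 0.1), and DESeq2 1.42.0 served as the other tool. Python 3.11.15, pandas 2.3.3, numpy 2.4.6, scipy 1.17.1 and matplotlib 3.10.9 were used for tables and figures. The 3 CCM and 3 control samples of week 3 were fitted alone without a block, as the study describes, and the interaction with week was fitted on all 12 samples. Standard errors come from log2 CPM of the replicates with a pseudocount of 0.5 CPM. Length offsets follow a lowess curve (span 0.3) of each library's log2 deviation on log2 exonic length. At the depths given, 3 counts are 0.17 CPM or less, and replicates differed by more than sampling noise (chi-square per degree of freedom 19.5 to 50.9), so their spread sets the precision.

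The replicate letters in the labels were taken to pair the samples, because the deviations from the group mean of same-letter samples of both schedules correlated across genes at 0.28 (A), 0.60 (B) and 0.55 (C), against -0.55 to 0.19 for other letters. The samples, members and gene lists were chosen with earlier results of these data known. Genes were named by rule: in each set of long or short genes that did not overlap between groups and had a mean of at least 1 CPM, the 6 with the smallest p in each direction; up to 3 members of each list in each direction with the smallest p with the block; every gene of the core clock, yolk and metallothionein lists; and others that a sentence counts out. Mtk, CecA2 and the genes listed as called were named after their values were seen. Alternatives were DESeq2, RLE size factors, at least 1 count in place of the filter, the block, all 12 samples in a single fit, a threshold of 0.05, length offsets, unmerged features alone, each library left out and Spearman's correlation for length. The letters left out and DESeq2 with the letter were chosen after seeing the data. Offsets for GC content were not fitted, since no genome sequence was used here, and no sequences are shown.

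The fits were tested on simulated counts with the week 3 means and library sizes and 200 features changed by a log2FC of 1. Of 12117 features, the fit without the block recovered 177, with 33 unchanged features among its 210 calls. On the same counts the block fit recovered 182, with 51 unchanged features among its 233 calls. The length-adjusted fit recovered 180, with 48 unchanged features among its 228 calls. The fits with the block thus called more unchanged features there than the fit without it. With a shift by replicate letter added (12113 features), the fit without the block recovered 0. The block fit then recovered 180, with 21 unchanged features among its calls. With a trend on length added as well, the block fit called 3861 unchanged features and the length-adjusted fit 24, with 182 of the 200 recovered. The slopes of this simulated trend were set by hand and were steeper than the trend in the data. These counts therefore do not measure how many of the week 3 calls are false.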

Additional observations from a re-analysis of the deposited data

How the results depend on the processing

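The count of 2 calls at week 3 was the same with RLE size factors, at least 1 count, length offsets without the block and features of a single gene. It was 1 at an adjusted p under 0.05 (1 of the short genes), 0 with all 12 samples in a single fit (0 short genes), and between 0 and 5 with each library left out (0 to 1 long and 0 to 3 short genes), the 5 coming without CCM replicate C. DESeq2 gave 353 calls (249 long and 77 short) and DESeq2 with the letter as a block 819 (470 and 292). The replicate block gave 1140 (740 long and 323 short), and with a letter left out 0 without A (0 short), 20 without B (8 long and 8 short) and 1939 without C (1169 and 617). Length offsets with the block gave 550 (317 and 175), and 172 without A (74 and 79), 44 without B (18 and 20) and 644 without C (342 and 221). Fits with a letter left out and DESeq2 with the letter were chosen after seeing the data, and the cause of these differences was not tested. The correlation of log2FC with length was -0.32 with DESeq2, -0.30 with at least 1 count, -0.057 with length offsets and -0.044 with offsets and the block, where offsets remove that trend by construction. The interaction had 0 calls in every edgeR setting and 1 with DESeq2.

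Of the genes named, cwo changed sign with length offsets (0.17, and 0.16 with the block) and with a library left out (-0.12 to 0.073), cyc with a library left out (-0.14 to 0.039), and sls with length offsets (0.38, and 0.39 with the block). With a library left out, Mtk ranged from -1.05 to 5.34, CecA2 from -0.92 to 4.19 (both lowest without CCM replicate C), Yp1 from -0.57 to 0.17, Def from -0.60 to 0.015 and Pxn from -0.031 to 0.13. The depths did not overlap between groups, and what depth, RNA quality or the sexes within a pool add to the trend with length was not tested.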
